A study of Homo sapiens with 6 samples.

Results

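Long non-coding RNAs are transcripts without a known protein product, and 45 of them with established names were followed in wild-type (WT) and DNAJC12 knockout SH-SY5Y cells. The 45 were taken by name from a written list, with earlier results of these data known. They were nuclear RNAs such as MALAT1 and NEAT1, imprinted RNAs, hosts of small nucleolar RNAs (snoRNAs) and microRNAs (miRNAs), and cytoplasmic RNAs. RNAs beside developmental regulator genes and RNAs of neural and tumour loci were also on the list. Of the 45, 42 had a row in the gene table, which holds 20668 genes, and 41 had enough counts to be tested among 16403 genes. SH-SY5Y is a human neuroblastoma line of sympathetic lineage. There were 3 WT libraries and 3 libraries from cells in which DNAJC12, a gene for an HSP70 co-chaperone, had been targeted with CRISPR/Cas9 to study invasion. No other treatment is named. The labels do not tell if the knockout was a single clone, or if the 3 libraries of a genotype came from separate cultures. All p-values thus reflect how much these libraries vary, and that variation may be technical.

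DNAJC12 RNA fell from 21.5 ± 1.5 to 5.54 ± 0.601 CPM (CPM, counts relative to the library total after TMM scaling; SD, n = 3). Library totals ran from 19321842 to 21869659 counts, so 3 counts correspond to 0.137 to 0.155 CPM in a library. Across all 16403 tested genes, 26.0% passed an adjusted p of 0.05 (14.5% higher and 11.5% lower in the knockout). Of 13 sympathoadrenal markers, 12 had a row (TH had none), and their summed level ran from 5018 to 5241 CPM in WT and from 4279 to 4366 CPM in the knockout. Single markers went both ways, with 3 of the 12 higher (CHGA among them, by 1.71) and 6 lower (CHGB at -2.23). The log2 fold changes of the 12 ran from -2.23 to 2.78. The summed level of 8 fibroblast marker genes was 1121 to 1195 CPM in WT and 2279 to 2356 CPM in the knockout, with COL3A1 the main contributor; 5 of the 8 were higher and LUM was lower (-1.17). Of 6 Schwann cell precursor markers, 4 had a row and summed to 7.37 to 9.68 CPM over the 6 libraries, with no row for SOX10 or FOXD3. Singly the 4 ran from -0.96 to 0.92 in log2 fold change, with 1 lower and 0 higher. Of 6 epithelial markers only EPCAM and CDH1 had a row, at 0.775 to 1.83 CPM. Of 6 blood cell markers, 3 had a row, and they summed to 10.45 to 14.01 CPM in WT and 18.0 to 26.4 CPM in the knockout, nearly all of it CD68. The part of these marker differences in the results below was not tested. In bulk RNA, fewer cells of a type and less RNA per cell cannot be told apart.

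Long non-coding RNAs work in different places and ways. MALAT1 and NEAT1 stay in the nucleus, in speckles and paraspeckles. HOTAIR and HAGLR are transcribed from within homeobox gene clusters, which set positional identity. The exons of snoRNA hosts are a by-product of snoRNA release from their introns, and several of these RNAs are rapidly broken down when ribosomes engage them. NORAD holds Pumilio proteins in the cytoplasm. miRNA hosts carry miRNA hairpins, and their spliced RNA is measured here, not the miRNA.

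Several of the miRNAs carried by these hosts share a seed, the stretch that pairs with target RNAs, and this makes one pair of hosts directly comparable. MIR100HG on chromosome 11 and MIR99AHG on chromosome 21 each carry a cluster of 3 related miRNA genes (MIR100HG spans 4 miRNA genes in all), and MIR22HG and H19 each carry 1 miRNA gene. The mature sequences below are RefSeq entries on GRCh38.p14, 5′ to 3′, with the seed (bases 2 to 8) in capitals.
miR-100-5p, in MIR100HG: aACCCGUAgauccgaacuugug
miR-99a-5p, in MIR99AHG: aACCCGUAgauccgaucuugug
let-7a-5p, in MIR100HG: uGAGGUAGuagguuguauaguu
let-7c-5p, in MIR99AHG: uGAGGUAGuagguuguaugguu
miR-125b-5p, in both hosts: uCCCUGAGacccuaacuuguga
miR-22-3p, in MIR22HG: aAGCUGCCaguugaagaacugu
miR-675-5p, in H19: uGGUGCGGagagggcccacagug
The 5p arms shown from MIR100HG and from MIR99AHG fall into the same 3 seed groups, and miR-125b-5p is identical from both loci. Of 2370 mature miRNAs in the reference table, 11 have the seed GAGGUAG, 3 have ACCCGUA and 3 have CCCUGAG. In all, 10 of the 42 RNAs with a row span at least 1 mature miRNA on their own strand, and none of the 23 miRNA genes has a row in the gene table.

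NORAD was examined for the Pumilio motif TGTANATA. Its single transcript (ENST00000565493, 5339 bases) holds the motif at 15 places on its own strand and at 1 place on the other strand. Of 328 other long non-coding transcripts of at least 5000 bases in GENCODE 29, 48.2% hold it at least once and 3 hold it at least as often, at up to 37 places. The highest density among these 328 was 2.89 places per kb, beside 2.81 in NORAD. These 4 of the 15 sites show how the motif recurs in a similar setting, with the motif in capitals and its first base counted from the transcript's 5′ end.
NORAD 1140: cactactgTGTATATAgttgacaa
NORAD 2972: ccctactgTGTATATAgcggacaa
NORAD 3275: ctgtgctgTGTATATAgtgtatat
NORAD 3593: tgctactgTGTATATAatggaaaa
A match is a description of the letters and not a measured binding site.

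The snoRNA hosts were examined for a C followed by at least 4 further pyrimidines within 5 bases of the annotated start, a feature typical of genes for the translation machinery. The start windows below are 30 bases long on the gene's strand (10 before and 20 from the start, RefSeq, GRCh38.p14), with the run in capitals. They show the 4 hosts that rose in the knockout, then 2 hosts that carry the run and did not pass the test.
SNHG29, chr17:16438977-16439006, +: ccttttgtgaggattgggatattccgactc
SNHG5, chr6:85678714-85678743, -: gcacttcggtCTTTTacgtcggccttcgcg
GAS5, chr1:173869026-173869055, -: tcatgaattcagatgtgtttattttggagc
SNHG16, chr17:76557754-76557783, +: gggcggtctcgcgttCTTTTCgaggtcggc
ZFAS1, chr20:49278632-49278661, +: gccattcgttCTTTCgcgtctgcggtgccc
SNHG12, chr1:28581854-28581883, -: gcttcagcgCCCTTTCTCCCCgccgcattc
The run was present in 7 of the 12 snoRNA hosts with a start in the table, in 10 of 25 other named RNAs, in 25.2% of all 27305 genes and in 82.4% of 68 ribosomal protein genes. A gene was counted if any of its listed starts had the run. Each of these snoRNA hosts has a single listed start, while other named RNAs such as MIR100HG and MIR99AHG have several. The shares are therefore not like for like. It was present in 2 of the 4 hosts that rose and in 5 of the 8 that did not pass. GAS5 and SNHG29 lack it at the RefSeq start used here, which says only that the letters are not in this window.

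Of the 41 tested RNAs, 13 passed the threshold (31.7%, against 26.0% of all genes), 11 higher and 2 lower in the knockout. HOTAIR fell 12-fold, LINC01116 rose 8.07-fold, MIR100HG 3.60-fold, HAGLR 2.71-fold and SNHG14 2.07-fold. The 5 changes of at least 2-fold are 5 of 41, beside 9.24% of all genes. The remaining calls were smaller: MIR22HG, SNHG29, CRNDE, SNHG5, NORAD, GAS5 and SNHG16 rose by 1.15- to 1.67-fold, and H19 fell 1.497-fold. The median log2 fold change of the 41 was 0.14, beside 0.00 for all tested genes and 0.08 for 1769 tested long non-coding genes of GENCODE 29. Among those 1769 genes, 244 (13.8%) passed. Knockout and WT values did not overlap for 21 of the 41, beside 41.7% of all genes.

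**Figure D1:**
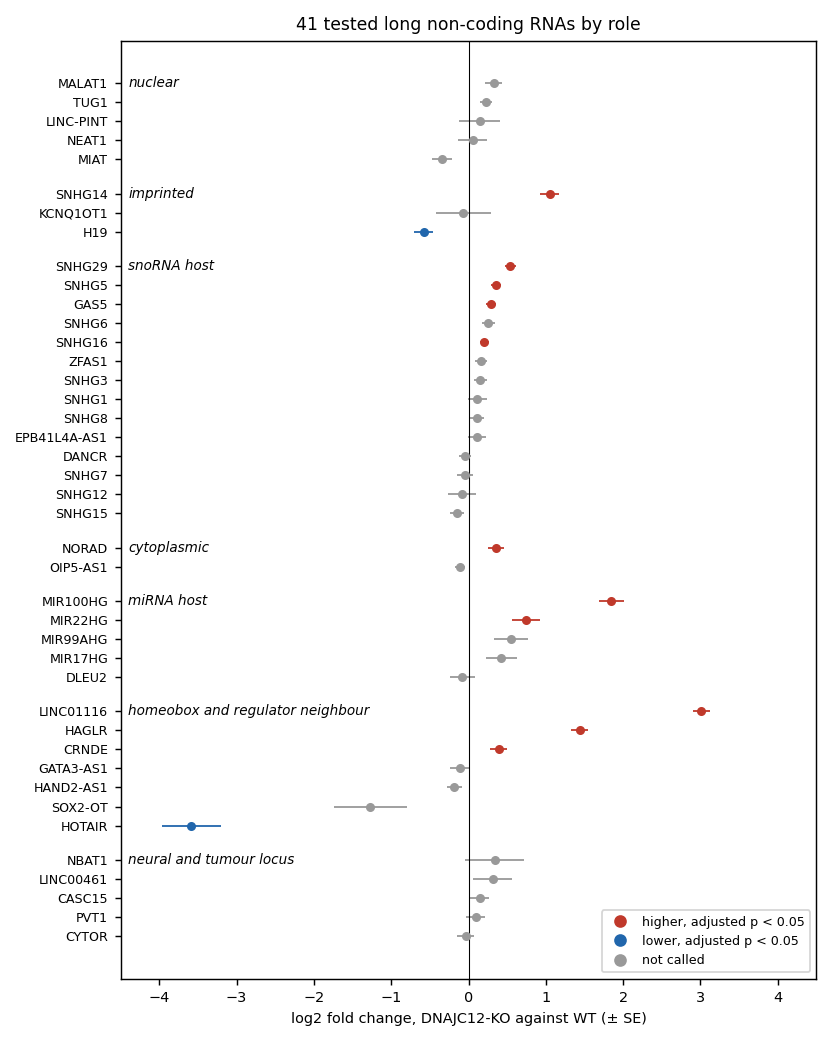
Log2 fold change, DNAJC12 knockout against WT, of the 41 tested long non-coding RNAs, grouped by role, with the SE of the edgeR fit as bars (n = 3 per group). Red marks the 11 RNAs that rose, blue the 2 that fell, and grey the 28 that did not pass; most points lie within 1 log2 unit of 0, while HOTAIR at -3.59 and LINC01116 at 3.01 stand far out.

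HOTAIR, an RNA transcribed antisense within the HOXC homeobox cluster and studied for its contacts with Polycomb repressive complex 2 (PRC2), had the largest change. It measured 3.002, 3.70 and 5.16 CPM in WT replicates 1 to 3 and 0.407, 0.193 and 0.373 CPM in the knockout, from 62, 73 and 101 counts against 8, 4 and 8. All 3 knockout libraries were far below all 3 WT libraries. The log2 fold change was -3.59 ± 0.38 (edgeR adjusted p = 5.41e-05). Most of its WT reads (73.5% to 90.8%) were assigned to the transcript ENST00000424518. HOTAIR lies on chr12:53962308-53974956 (minus strand, GENCODE 29, GRCh38).

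HOXC11 and HOXC10, the tested HOXC genes closest to HOTAIR, were lower as well. HOXC11, a homeobox transcription factor gene that overlaps HOTAIR on the other strand by 1831 bases, measured 2.61, 2.49 and 3.17 CPM in WT and 0.153, 0.0963 and 0.0466 CPM in the knockout. That is 54, 49 and 62 counts against 3, 2 and 1, and the fitted change of -4.74 ± 0.46 (edgeR adjusted p = 2.50e-05) rests on those few knockout counts. HOXC10, which begins 10109 bases away, fell from 4.68 ± 0.687 to 0.841 ± 0.237 CPM (-2.47 ± 0.29, edgeR adjusted p = 0.00011). In the knockout libraries all 3 genes were thus at 1.11 CPM or less. The other tested HOXC genes did not pass: HOXC9 was at -0.19 (edgeR adjusted p = 0.506), and HOXC4, HOXC5, HOXC6 and HOXC8 were at 0.03 to 0.20. Over the wider region, the median log2 fold change of 43 other tested genes within 1 Mb was 0.02. Of these 43, 4 were higher and 8 were lower (HOXC10 and HOXC11 included), beside 14.5% and 11.5% of all genes.

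On chromosome 2, LINC01116, in the wider region of the HOXD homeobox cluster, and HAGLR, within that cluster, both rose. LINC01116 (chr2:176629589-176637931, minus strand), an intergenic RNA, measured 6.49, 5.38 and 5.68 CPM in WT and 45.5, 50.6 and 45.7 CPM in the knockout. All 3 knockout libraries were far above all 3 WT libraries. The change was 3.01 ± 0.11 (edgeR adjusted p = 3.26e-08), which gives it the smallest p of the 41. LINC01117, which overlaps it by 222 bases on the other strand, rose by 3.15 ± 0.46 (edgeR adjusted p = 0.000517) from 11 counts in the WT libraries to 104 in the knockout libraries.

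HAGLR (chr2:176164051-176188958, minus strand) runs antisense through the HOXD cluster. It measured 7.70, 7.46 and 8.39 CPM in WT and 22.1, 20.3 and 21.4 CPM in the knockout, with no overlap and with coefficients of variation of 6.12% and 4.21%. The log2 fold change was 1.44 ± 0.11 (edgeR adjusted p = 4.16e-06). HOXD3, which shares 9052 bases with HAGLR on the other strand, rose from 6.43 ± 1.06 to 12.8 ± 2.08 CPM (1.00 ± 0.17, edgeR adjusted p = 0.00122). HOXD1, which shares 380 bases, rose by 1.92 ± 0.50 from a level of 0.299 ± 0.17 CPM (edgeR adjusted p = 0.0159); without WT replicate 3 or knockout replicate 1 its adjusted p was 0.0540 and 0.0515. HOXD13, at the far end of the cluster and 533651 bases from LINC01116, had 1.09 ± 0.39 (edgeR adjusted p = 0.0654).

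The neighbourhoods of these RNAs differed in kind. Over all genes, 14.5% were higher and 11.5% lower. Within 1 Mb of HAGLR, 9 of 15 other tested genes were higher and 1 was lower, with a median of 1.92. The 9 include HOXD4, HOXD8, HOXD9, HOXD10 and HOXD11, whose log2 fold changes ran from 2.06 to 4.01. HOXD10 and HOXD11 rose from means of only 0.431 and 0.381 CPM in WT. HOXD-AS2, a further RNA gene within the cluster, did not rise (-0.24 ± 0.12, edgeR adjusted p = 0.205). Within 1 Mb of LINC01116, 10 of 20 were higher and 0 lower by edgeR (1 lower at an unadjusted p, 0 in DESeq2 and limma-voom), with a median of 0.62, and the windows of the 2 RNAs share the HOXD genes. Measured between middles, those genes lie 444 to 539 kb from LINC01116. MTX2, between LINC01116 and the cluster, did not pass (0.19 ± 0.08, edgeR adjusted p = 0.133). HAGLR's median was 2.06 in a window of 0.5 Mb and 0.15 in one of 3 Mb, so the high values are close to the cluster.

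**Figure D2:**
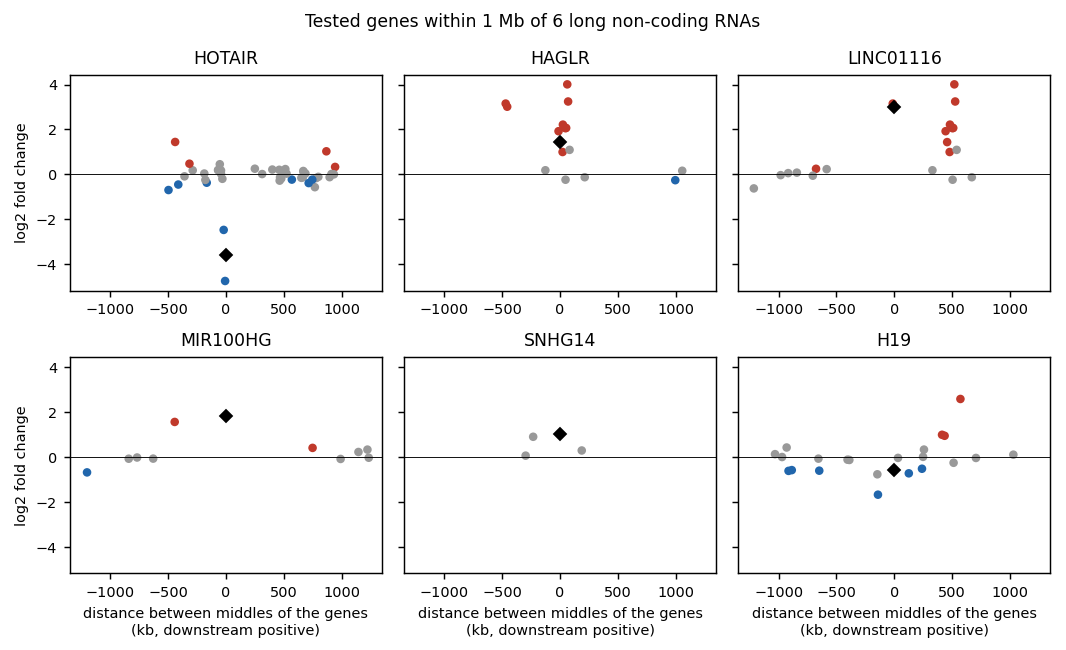
Log2 fold change, DNAJC12 knockout against WT, of every tested gene within 1 Mb of 6 long non-coding RNAs, against the distance between the middles of the genes in kb (positive values lie downstream in the RNA's own direction). The black diamond is the named RNA, red and blue points are genes that rose or fell, and grey points did not pass. HAGLR has HOXD genes above 1 close by, and the same genes lie 444 to 539 kb from LINC01116. HOTAIR has 2 low HOXC genes among neighbours mostly near 0.

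Other RNAs beside developmental regulators moved less or did not pass. CRNDE, an RNA beside the homeobox gene IRX5 that is often high in tumours, rose from 20.7 ± 0.545 to 27.1 ± 3.55 CPM (0.39 ± 0.11, edgeR adjusted p = 0.0248). IRX5 itself had 0.35 ± 0.17 (edgeR adjusted p = 0.175). The CRNDE call was lost without any 1 library except knockout replicate 1, with adjusted p from 0.0525 to 0.0933.

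SOX2-OT, whose gene contains SOX2 on the same strand, had few counts: 30, 13 and 14 in WT and 9, 6 and 9 in the knockout. Its levels were 1.45, 0.660 and 0.716 CPM against 0.458, 0.289 and 0.420 CPM, without overlap, at -1.27 ± 0.47 (edgeR adjusted p = 0.0729). SOX2, a stem cell transcription factor gene, fell from 18.4 ± 1.47 to 6.01 ± 0.472 CPM (-1.62 ± 0.12, edgeR adjusted p = 4.73e-06). Reads of SOX2 and of SOX2-OT share a strand and a locus, so their assignment is uncertain.

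HAND2-AS1 and GATA3-AS1 start close to HAND2 and GATA3, transcription factor genes of the sympathetic lineage. HAND2-AS1 measured 585, 549 and 468 CPM in WT and 526, 423 and 462 CPM in the knockout, with overlapping groups (-0.18 ± 0.10, edgeR adjusted p = 0.204). HAND2 fell by 0.29 ± 0.08 on the log2 scale (edgeR adjusted p = 0.0177), and without WT replicate 1 or 2 its adjusted p was 0.0750 and 0.0528. GATA3-AS1 measured 17.1, 20.5 and 21.0 CPM in WT and 17.5, 16.3 and 20.3 CPM in the knockout, again overlapping (-0.11 ± 0.12, edgeR adjusted p = 0.565). GATA3 fell by 0.34 ± 0.06 (edgeR adjusted p = 0.00175). In both pairs the regulator passed and the RNA did not; the difference between the members of a pair was not tested.

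Of the imprinted RNAs, H19 and SNHG14 changed, in opposite directions. H19, transcribed from the maternal chromosome beside IGF2 and the host of miR-675, had the highest level per length of the 16 named RNAs for which TPM could be given. It measured 912, 859 and 857 CPM in WT and 466, 711 and 579 CPM in the knockout, so that the groups did not overlap while the knockout libraries varied widely (coefficient of variation 21.0%, against 3.55% in WT). The change was -0.58 ± 0.12 (edgeR adjusted p = 0.00497). The transcript ENST00000414790 carried 77.2% to 83.3% of its reads in each library.

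IGF2, a growth factor gene 127642 bases from H19, is expressed from the paternal chromosome. It measured 110, 97.9 and 83.3 CPM in WT and 23.6, 37.9 and 29.9 CPM in the knockout, a larger fall than that of H19 in fitted size (-1.67 ± 0.16, edgeR adjusted p = 2.14e-05). The difference between the 2 changes was not tested. Within 1 Mb of H19, 22 other genes were tested, of which 3 were higher and 6 lower, with a median of -0.05. Over all genes, 14.5% were higher and 11.5% lower. The 3 higher genes were BRSK2 (2.58), KRTAP5-AS1 (0.99) and DUSP8 (0.95). The 6 lower genes include KCNQ1 and CDKN1C of the adjacent imprinted domain.

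KCNQ1OT1, the antisense RNA of that domain, lies wholly within KCNQ1 and was scarce. It measured 4.16, 2.44 and 1.79 CPM in WT and 3.67, 2.17 and 2.19 CPM in the knockout, and the groups overlapped (-0.07 ± 0.36, edgeR adjusted p = 0.917). KCNQ1, a potassium channel gene, fell from 16.5 to 10.9 CPM (-0.60 ± 0.12, edgeR adjusted p = 0.00393).

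SNHG14 (chr15:24978583-25419462, plus strand) is the long host of snoRNA clusters in the Prader-Willi region, and its far end runs antisense to UBE3A. It measured 29.8, 29.1 and 22.6 CPM in WT and 51.8, 61.7 and 55.2 CPM in the knockout. Every knockout library was above every WT library, at 1.05 ± 0.12 (edgeR adjusted p = 7.77e-05). UBE3A, a ubiquitin ligase gene that shares 85735 bases with SNHG14 on the other strand, had 0.29 ± 0.10 (edgeR adjusted p = 0.0559). UBE3A passed in DESeq2 (adjusted p = 0.0460), at a mean CPM of at least 1 (0.0491), with the replicate block (0.0227) and without knockout replicate 1 (0.0032). SNRPN, at the start of the same transcription unit, had 0.06 ± 0.06 (edgeR adjusted p = 0.516). PWAR5, a short RNA gene within SNHG14, was not tested and had 0, 0 and 9 counts in WT and 0, 32 and 43 in the knockout.

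MEG3, MEG8 and MEG9, maternally expressed RNAs of chromosome 14, had no row in the gene table. In the transcript files the transcripts of MEG3 and MEG8 held 3 and 2.17 estimated reads over all 6 libraries, and those of MEG9 held 0. The paternally expressed genes of the same domain were measured: RTL1 fell from 202 ± 14.1 to 123 ± 7.21 CPM (-0.71 ± 0.07, edgeR adjusted p = 4.72e-05), and DLK1 had -0.21 ± 0.08 (edgeR adjusted p = 0.0981).

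**Figure D3:**
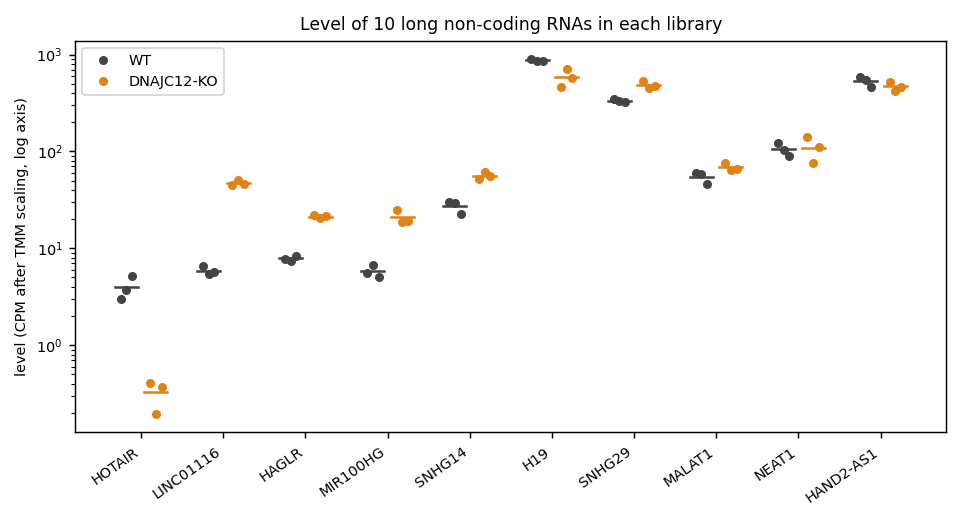
Level of 10 long non-coding RNAs in each library, in CPM after TMM scaling on a log axis; points are libraries, horizontal lines group means (n = 3). The WT and knockout points are fully apart for HOTAIR, LINC01116, HAGLR, MIR100HG, SNHG14, H19, SNHG29 and MALAT1, and overlap for NEAT1 and HAND2-AS1.

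Among the miRNA hosts, MIR100HG and MIR22HG rose. MIR100HG (chr11:122028327-122556721, minus strand) measured 5.57, 6.75 and 5.06 CPM in WT and 25.1, 18.6 and 18.9 CPM in the knockout. The groups were far apart, and the change was 1.85 ± 0.16 (edgeR adjusted p = 1.20e-05). The transcript ENST00000524376 carried 55.1% to 78.2% of its reads. Of 10 other tested genes within 1 Mb, 2 were higher and 1 lower, with a median of -0.02, beside 14.5% and 11.5% of all genes.

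MIR99AHG, which carries the miRNAs of the same seeds shown above, measured 6.34, 5.58 and 4.30 CPM in WT and 5.81, 9.20 and 8.72 CPM in the knockout. Its groups overlapped through knockout replicate 1, and it had 0.55 ± 0.21 (edgeR adjusted p = 0.0889). MIR22HG, the host of miR-22 and a gene known to respond to stress, rose from 5.60 ± 1.15 to 9.37 ± 1.13 CPM (0.74 ± 0.18, edgeR adjusted p = 0.0119). MIR17HG, the host of the miR-17-92 cluster, had 0.43 ± 0.21 (edgeR adjusted p = 0.165), and DLEU2, the host of miR-15a and miR-16-1, had -0.08 ± 0.17 (edgeR adjusted p = 0.776). The mature miRNAs were not measured.

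The 14 snoRNA hosts held 4 RNAs that rose and 0 that fell by edgeR (0 also at an unadjusted p under 0.05, in DESeq2 and in limma-voom), with a median log2 fold change of 0.13; 26.0% of all genes passed in either direction. Of the 14, 7 had knockout values wholly on one side of WT, beside 41.7% of all genes. SNHG29 was the largest of these rises, from 347, 329 and 327 CPM in WT to 529, 453 and 477 CPM in the knockout (0.54 ± 0.07, edgeR adjusted p = 0.000189). SNHG5 rose from 116 ± 6.21 to 149 ± 5.26 CPM (0.35 ± 0.07, edgeR adjusted p = 0.00293). GAS5, a growth-arrest RNA that builds up when translation slows, rose from 242 ± 3.59 to 296 ± 24.6 CPM (0.29 ± 0.07, edgeR adjusted p = 0.0110), and SNHG16 from 178 ± 6.07 to 205 ± 4.25 CPM (0.20 ± 0.06, edgeR adjusted p = 0.0294). The last 2 are the least secure: GAS5 had adjusted p of 0.0591 and 0.0559 without WT replicate 2 or knockout replicate 3. SNHG16 had 0.0566 to 0.146 without any 1 WT library or knockout replicate 3, and 0.110 with library size as the only scaling.

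The other 10 snoRNA hosts did not pass, with log2 fold changes from -0.15 (SNHG15) to 0.26 (SNHG6). SNHG6 measured 45.8, 41.6 and 45.05 CPM in WT and 48.4, 56.6 and 53.1 CPM in the knockout, apart but with an edgeR adjusted p of 0.0527. ZFAS1 measured 63.2, 58.4 and 66.7 CPM against 69.9, 71.8 and 68.6 CPM (0.16 ± 0.08, edgeR adjusted p = 0.159). EPB41L4A-AS1 measured 18.8, 16.1 and 15.3 CPM in WT and 17.2, 17.3 and 19.5 CPM in the knockout (0.10 ± 0.12, edgeR adjusted p = 0.567). Its sense gene EPB41L4A fell (-0.36 ± 0.11, edgeR adjusted p = 0.0330), a call lost on leaving out any library except knockout replicate 3, with adjusted p from 0.0570 to 0.107, and with length-corrected counts (0.491).

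Of 14 further genes named SNHG, 11 were tested and 2 rose: SNHG19 by 0.61 ± 0.15 (edgeR adjusted p = 0.0133) and SNHG32 by 0.36 ± 0.11 (edgeR adjusted p = 0.0299). These 2 are 18.2% of the 11, whose median was 0.07. For this list and the next 2, the share over all genes was 26.0% (14.5% higher and 11.5% lower). This count of 2 fell to 0 without WT replicate 2 or 3, and to 1 without knockout replicate 1 or 3, with library size alone and with length-corrected counts. Of 8 core proteins of snoRNPs, the particles that modify ribosomal RNA, NHP2 rose (0.52 ± 0.06, edgeR adjusted p = 0.000143) and the other 7 did not pass, with a list median of 0.00. Of 10 nonsense-mediated decay factors, the machinery that breaks down such host RNAs, 0 passed in the edgeR fit, at an adjusted or an unadjusted p under 0.05, in DESeq2 or in limma-voom, with a median of -0.06.

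MALAT1, NEAT1, MIAT, TUG1 and LINC-PINT, the 5 nuclear RNAs, did not pass the edgeR test; 3 had an unadjusted p under 0.05. MALAT1 measured 60.0, 58.9 and 45.8 CPM in WT and 75.8, 64.2 and 66.6 CPM in the knockout, apart by a small margin (0.33 ± 0.11, edgeR adjusted p = 0.0554). TUG1 had 272 ± 16.9 CPM in WT and 318 ± 27.3 CPM in the knockout (0.23 ± 0.08, edgeR adjusted p = 0.0539), and MIAT 79.3 ± 15.9 and 62.7 ± 2.71 CPM (-0.34 ± 0.13, edgeR adjusted p = 0.0821). All 3 were past the threshold in DESeq2 (adjusted p of 0.0345, 0.0450 and 0.0411) and none in limma-voom. NEAT1, the scaffold of paraspeckles, measured 123, 104 and 89.2 CPM in WT and 142, 76.7 and 111 CPM in the knockout; its knockout libraries alone spanned a wider range than WT (0.06 ± 0.19, edgeR adjusted p = 0.873). LINC-PINT had 1.93 and 2.14 CPM (0.14 ± 0.26, edgeR adjusted p = 0.744).

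Genes for the proteins that these nuclear RNAs gather were listed by complex. Over all genes, 26.0% passed (14.5% higher and 11.5% lower). Of 14 paraspeckle protein genes, 5 rose and 0 fell by edgeR (0 also at an unadjusted p under 0.05, in DESeq2 and in limma-voom), and the list median was 0.20: SFPQ by 0.37 ± 0.08 (edgeR adjusted p = 0.00639), EWSR1 by 0.23 ± 0.06 (0.0171), and TAF15 by 0.27 ± 0.08 (0.0219), with PSPC1 and CPSF6 also past the threshold. Leaving out single libraries gave 1 to 9 calls in this list: 1 without WT replicate 1 or knockout replicate 3, 2 without WT replicate 2 or 3, and 9 without knockout replicate 1. Of 9 nuclear speckle protein genes, 0 passed in the edgeR fit (4 at an unadjusted p under 0.05, 1 in DESeq2 and 1 in limma-voom), with a median of 0.10. Of 11 genes for PRC2 subunits, JARID2 rose (0.40 ± 0.09, edgeR adjusted p = 0.00593) and PHF19 fell (-0.31 ± 0.08, edgeR adjusted p = 0.0156), with a median of 0.02. The PHF19 call was lost without WT replicate 1, WT replicate 3 or knockout replicate 3, and with length-corrected counts.

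Of the 2 cytoplasmic RNAs, NORAD rose. It measured 272, 276 and 250 CPM in WT and 290, 394 and 336 CPM in the knockout, without overlap but with knockout replicate 1 close to WT (0.35 ± 0.10, edgeR adjusted p = 0.0241). The call was lost without any 1 WT library or without knockout replicate 3, with adjusted p from 0.0603 to 0.113, and with counts corrected for transcript length (0.0535). Of 4 genes for Pumilio and other NORAD-binding proteins, 1 passed, beside 26.0% of all genes: KHDRBS1 rose (0.41 ± 0.08, edgeR adjusted p = 0.00209). OIP5-AS1, which binds the RNA-stabilising protein HuR, had 167 ± 3.10 and 155 ± 9.83 CPM (-0.11 ± 0.07, edgeR adjusted p = 0.268).

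Of the 6 RNAs of neural and tumour loci, 5 were tested, with log2 fold changes from -0.04 (CYTOR) to 0.34 (NBAT1). In the edgeR fit 0 passed, at an adjusted or an unadjusted p under 0.05, and 0 in DESeq2 or in limma-voom. By edgeR, 26.0% of all genes passed. NBAT1 and CASC15, neuroblastoma-associated RNAs that overlap on opposite strands, lie in the region of SOX4. NBAT1 measured 1.84, 0.863 and 1.79 CPM in WT and 1.22, 2.07 and 2.38 CPM in the knockout, and CASC15 37.8, 38.0 and 26.9 CPM against 36.7, 38.1 and 38.6 CPM, so both overlapped. SOX4, a transcription factor gene 66153 bases from CASC15, rose from 359 to 502 CPM (0.48 ± 0.06, edgeR adjusted p = 0.000232).

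At PVT1 and LINC00461 too, a neighbour passed beside an RNA that did not. The differences within these pairs, and within those of SOX4, were not tested. PVT1, which follows MYC on its chromosome, measured 9.34, 9.14 and 8.49 CPM in WT and 10.3, 9.53 and 8.91 CPM in the knockout (0.09 ± 0.13, edgeR adjusted p = 0.663). MYC rose by 0.32 ± 0.08 (edgeR adjusted p = 0.0160), with adjusted p of 0.0681, 0.0628 and 0.0726 without WT replicate 1, WT replicate 2 or knockout replicate 3. The MYC call was also lost with transcript counts summed per gene (adjusted p = 0.115) and with length-corrected ones (0.219). LINC00461, a neural RNA that carries miR-9, measured 2.32, 2.54 and 1.94 CPM against 3.21, 2.60 and 2.66 CPM (0.31 ± 0.25, edgeR adjusted p = 0.414). MEF2C, a neuronal and muscle transcription factor gene 26076 bases away, rose by 0.72 ± 0.11 (edgeR adjusted p = 0.000631), a call lost with length-corrected counts (0.58, adjusted p = 0.147). RMST, a neurogenesis RNA, had 12, 5 and 4 counts in WT and 1, 0 and 3 in the knockout and was not tested.

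Over the list of 24 sense and neighbouring genes, 14 passed (5 higher and 9 lower), beside 26.0% of all genes (14.5% higher and 11.5% lower). The partner passed in 14 of 23 pairs in which both genes were tested, with SOX4 in the pairs of both NBAT1 and CASC15. Several partners share a locus, as in the HOXC and HOXD clusters. The pairs were chosen with earlier results of these data known, so these counts do not describe an unselected set of partners. In 5 pairs the RNA and its partner both passed, each time in the same direction: HOTAIR with HOXC10 and HOXC11, HAGLR with HOXD1 and HOXD3, and H19 with IGF2. In 9 pairs the partner alone passed, in 4 the RNA alone (SNHG14 with UBE3A, near the threshold, among them) and in 5 neither. In 14 of the 23 pairs the genes overlap. The kit marks strand but the sources used here give no strand setting for the counting, so reads of overlapping genes on opposite strands may have been exchanged.

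**Figure D4:**
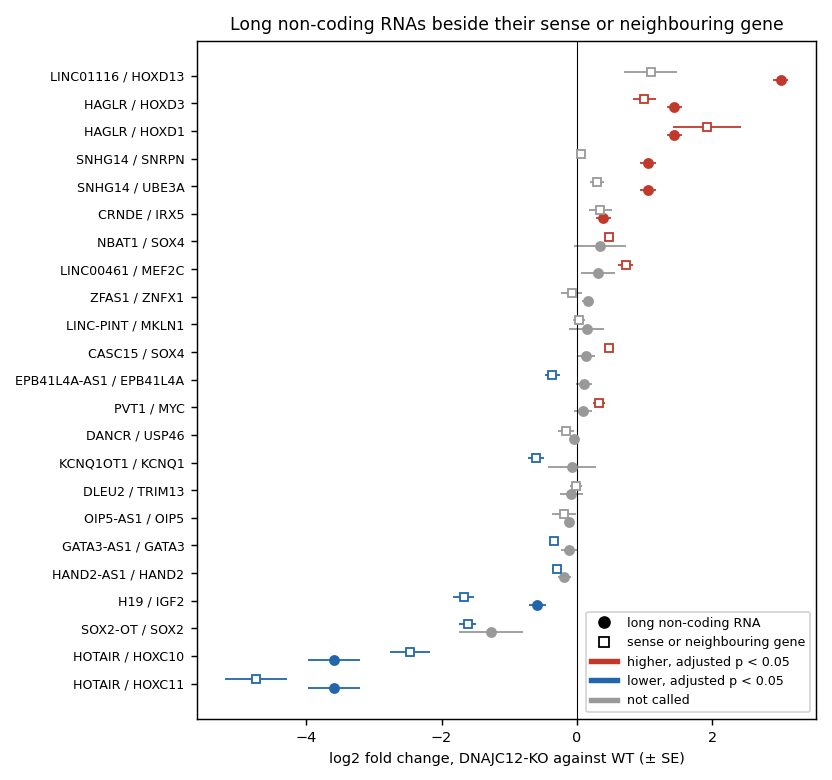
Log2 fold change, DNAJC12 knockout against WT, of each long non-coding RNA (filled circles) and of its sense or neighbouring gene (open squares) in 23 pairs, with the SE of the edgeR fit as bars and colour by the call. Both genes of a pair lie well below 0 for HOTAIR with HOXC10 and HOXC11 and for SOX2-OT with SOX2. The fitted values of IGF2, KCNQ1 and EPB41L4A lie below those of their RNA, with a wide bar for KCNQ1OT1. These differences were not tested.

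Levels of different RNAs can be compared per length only, as TPM, a transcript's length-corrected share of its library, and this was possible for the 16 RNAs whose counts fall on mapped transcripts. By mean TPM in WT the order was H19 at 497 ± 23.6, HAND2-AS1 at 289 ± 40.0, ZFAS1 at 168 ± 7.30, SNHG6 at 167 ± 4.75 and NORAD at 72.2 ± 5.48 (SD, n = 3). H19 and HAND2-AS1 differed from the next by more than their spread, while ZFAS1 and SNHG6 did not differ from each other beyond theirs. The second place rests on summing transcripts: by the transcript with most reads alone, HAND2-AS1 was at 75.8 TPM, below SNHG6 at 136 and ZFAS1 at 90.3, and H19 was first at 449.6. HOTAIR had 3.54 ± 0.459 TPM in WT and 0.448 in the knockout, MIR100HG 3.47 ± 1.17 and 10.3. KCNQ1OT1 was last at 0.0407 ± 0.0192 TPM, spread over a transcript of 91667 bases.

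**Figure D5:**
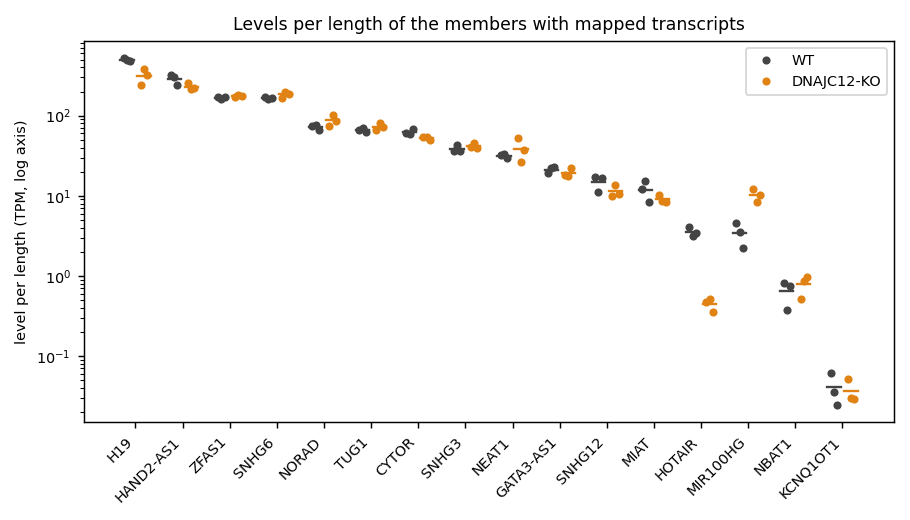
TPM per library of the 16 long non-coding RNAs with mapped transcripts, on a log axis, ordered by WT mean; points are libraries and lines group means (n = 3). Levels span from H19 at 497 to KCNQ1OT1 at 0.0407 TPM in WT, and HOTAIR and MIR100HG show the widest gaps between the groups.

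Together the named RNAs took a small and stable share of all counts, 0.369% to 0.409% in WT and 0.387% to 0.395% in the knockout. Their make-up differed: H19 and HAND2-AS1 held 36.2% to 37.7% of these counts in WT and 25.3% to 27.8% in the knockout, and snoRNA hosts 32.7% to 35.3% and 37.5% to 41.7%. Neither pair of ranges overlapped, but both are shares of the same total, so they are not independent. Of all counts, H19 alone held 0.0863% to 0.0939% in WT and 0.0461% to 0.0690% in the knockout. HAND2-AS1 alone held 0.0471% to 0.0602% and 0.0410% to 0.0520%, which overlapped. The mitochondrially encoded share of counts, a rough sign of RNA make-up, overlapped between the groups at 6.42% to 7.501%.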

How the data were processed

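RNA was depleted of ribosomal RNA, and libraries were strand-marking and randomly primed, per the labels' protocols. The submitters' processing notes name cutadapt 3.5, Salmon 1.10.0 and DESeq2 1.42.1, with GRCh38.p14, without roles. The deposited gene table holds estimated counts rounded to whole numbers by the authors, without normalization. The transcript files hold estimated (expected) counts and TPM per transcript, per the file headers. From 21071 rows, 403 repeated rows were removed, leaving 20668 genes. Salmon divides reads among similar transcripts, so genes with near copies are uncertain.

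Knockout and WT were tested against each other in edgeR 4.0.16 under R 4.3.3: filterByExpr, TMM scaling, the quasi-likelihood F-test, two-sided, Benjamini-Hochberg adjustment over 16403 genes, threshold 0.05. The script was tested on simulated data. The SE is the size of the log2 fold change divided by the root of F. CPM includes TMM scaling; floors cover counting error only. Transcripts were assigned by GENCODE 29 identifiers, which miss newer ones, so TPM was used for 16 RNAs with at least 80% of their counts on mapped transcripts in every library.

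Values per library are given for RNAs past the threshold by at least 2-fold, the 5 highest by TPM, and those whose partner passed; MALAT1, NEAT1, MIR99AHG, SNHG29 and untested RNAs were added after their values were seen. From each list up to 3 called genes are named. PSPC1, CPSF6, and the neighbours PWAR5, CDKN1C, BRSK2, KRTAP5-AS1, DUSP8 and the HOXD genes were added likewise. RNAs, pairs and lists were chosen with earlier results of these data known. Alternatives were DESeq2 1.42.0, limma-voom (limma 3.58.1), other scaling and filters, a stricter threshold, a replicate block, transcript-file counts, other windows and leaving out each library; the restriction of transcript-file counts to 16 RNAs was chosen after seeing the data.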

Additional observations from a re-analysis of the deposited data

How the results depend on the processing

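Of the 13 calls, 9 held at the 0.05 threshold in every other fit run for them (HOTAIR, LINC01116, HAGLR, MIR100HG, SNHG14, H19, SNHG29, SNHG5 and MIR22HG), and 4 (CRNDE, GAS5, NORAD, SNHG16) were lost in at least 1. Of the RNAs not called, 6 passed in at least 1 setting: MALAT1, TUG1, MIAT, SNHG6, MIR99AHG and HAND2-AS1. The number of calls among the 41 was 13 to 16 over the other normalizations, filters and tools. With an adjusted p under 0.01 it was 8, since MIR22HG was lost as well as those 4, with 2663 of all genes and 4 of the list genes. Leaving out single libraries gave 9 to 17 calls among the 41, 5 to 19 list genes against 11, and 3 to 7 of the 16 RNAs on mapped transcripts against 4; each such fit has fewer samples. Length-corrected counts from the transcript files gave 2834 calls over all genes, among fewer genes tested. Library size as the only scaling split all calls into 2055 higher and 2438 lower and moved the median gene by about -0.06.

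With the replicate block there were 16 calls among the 41 (13 higher and 3 lower) and 4565 over all genes. Deviations of same-numbered libraries correlated at 0.142, 0.0283 and -0.0763, and not every library correlated best with the one of its own number, so the numbers were not taken to pair the samples.

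Some small differences that did not pass changed sign. Leaving out single libraries gave -0.17 to 0.26 for NEAT1, -0.36 to 0.33 for KCNQ1OT1, -0.0084 to 0.22 for CASC15, -0.18 to 0.015 for DLEU2, -0.14 to 0.014 for CYTOR, -0.0061 to 0.23 for SNHG1, -0.22 to 0.070 for SNHG12, -0.23 to 0.085 for ZNFX1, -0.080 to 0.051 for TRIM13 and -0.045 to 0.093 for MKLN1. MKLN1 was at -0.028 with library size alone, and USP46 at 0.16 with length-corrected counts.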
